A study of Mus musculus with 2 samples.

Results

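Receptor chains for haematopoietic cytokines were followed through blood cells of wild-type and APP/PS1 mice by single-cell RNA sequencing. The set was 10 genes, matched by symbol among the 32285 genes listed for each cell, and all 10 were detected in both libraries: Csf3r, Csf2ra, Csf2rb, Csf2rb2, Csf1r, Il6ra, Il4ra, Il17ra, Ifngr1 and Ifnar2. The rule uses gene symbols only. The study sequenced 1 library per genotype, each from the pooled blood of 3 mice at 7 months of age. The WT mice carried no transgene, and the APP/PS1 mice carry mutant human amyloid precursor protein and presenilin 1 transgenes and serve as a model of Alzheimer's disease. All mice were female, and none had a treatment on its label. Neutrophils had been enriched from blood with a commercial kit before 10x Genomics 3′ library preparation, and cells of other types were present in both libraries. With 1 library per genotype there was no replicate check and no test. Every interval in the text is a 95% interval that covers counting error only, and the spread between mice cannot be seen in pooled libraries.

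Most of these receptors belong to the type I and type II cytokine receptor families, which have no kinase of their own and signal through Janus kinases (JAK) and STAT transcription factors. The exceptions are Csf1r, a receptor tyrosine kinase, and Il17ra, which signals through the adaptor Act1. A binding chain often needs a shared signalling chain: Csf2ra binds GM-CSF and pairs with the common beta chain Csf2rb, Il6ra pairs with Il6st (gp130), Il4ra with Il2rg or Il13ra1, Ifngr1 with Ifngr2, and Ifnar2 with Ifnar1. G-CSF, acting through Csf3r, drives the production of neutrophils in the marrow and their release into blood, whereas M-CSF, acting through Csf1r, sustains monocytes.

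There were 17123 cells from WT and 17645 from APP/PS1 blood, with 92458623 and 84870864 unique molecular identifiers (UMIs, each standing for 1 captured transcript). After quality filtering 14564 and 15208 cells were kept, with median UMIs of 3275 and 3086 per cell, and 83 barcodes occurred in both libraries. Although every cell was labelled neutrophil, clusters with neutrophil markers (S100a8, S100a9, Hdc, Retnlg, Mmp9, Cxcr2, Clec4d and Slpi) held 7589 WT and 9590 APP/PS1 cells, and the other 6975 and 5618 cells carried markers of other blood cells or were mixed. Cell names in the text mean clusters that are like the named type by their markers; no receptor or pathway gene was among the clustering features. Cells called doublets made up 7.61% and 5.81% of kept cells and were left in, and 2 kinds of cluster without a cell type name also remained: mixed clusters, with 69.4% and 58.6% of cells called doublets, and unnamed ones. Summed UMIs are given as CPM, the usual scaled share of a gene in all UMIs of the same cells, and where a pair of values is given without names the WT library comes first and the APP/PS1 library second. All 10 receptors together took 4073.2 CPM of WT and 4038 CPM of APP/PS1 neutrophil UMIs.

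Promoter sequence was available from RefSeq (assembly GRCm38.p6) for 7 of the 10 genes. The 250 bases before the annotated start were searched on both strands for 3 motifs of factors used by myeloid cells and cytokine receptors: the PU.1 core GAGGAA, the C/EBP motif TTGCNNAA and the STAT motif TTCNNNGAA. The PU.1 core was present in 4 of the 7, namely Csf3r (86 bases before the start), Csf2ra (adjacent copies at 14 and 8 bases), Csf2rb2 (167 bases) and Il6ra (70 bases), against 23.3% of 32851 promoters of the same length. The STAT motif was present in Csf2rb2 and Ifnar2, against 7.02% of all promoters, and the C/EBP motif in 0 of the 7, against 9.56%. The promoters of Il4ra and Ifngr1 held none of the 3, and a match is a stretch of letters, not a bound site. The start used by RefSeq differs from that of the gene coordinates given here for Csf3r, Csf2ra and Il4ra. It matches them for Csf2rb2, Il6ra, Ifngr1 and Ifnar2. On those coordinates the Csf3r match and the Csf2ra copies lie inside the gene or across its start. The 3 promoters printed here are those of Csf2rb2, which held 2 of the motifs, and of Il6ra and Ifngr1, the receptors with the largest difference in each direction between the libraries in neutrophils. They lie at chr15:78305722-78305971 on the minus strand, chr3:89913197-89913446 on the minus strand and chr10:19591699-19591948 on the plus strand. Each is written 5′ to 3′ along its gene, with motif matches in capitals (TTCCTC is the PU.1 core read from the other strand).
Csf2rb2: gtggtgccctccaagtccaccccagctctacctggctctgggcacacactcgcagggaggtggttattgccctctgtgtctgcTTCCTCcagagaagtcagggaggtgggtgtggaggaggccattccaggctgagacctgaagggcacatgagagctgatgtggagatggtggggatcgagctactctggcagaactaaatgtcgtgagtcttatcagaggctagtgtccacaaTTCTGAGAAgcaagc
Il6ra: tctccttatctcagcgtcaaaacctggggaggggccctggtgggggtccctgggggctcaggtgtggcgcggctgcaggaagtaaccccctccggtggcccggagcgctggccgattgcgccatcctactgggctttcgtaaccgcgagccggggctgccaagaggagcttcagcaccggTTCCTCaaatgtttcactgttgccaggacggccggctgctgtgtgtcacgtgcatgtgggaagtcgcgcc
Ifngr1: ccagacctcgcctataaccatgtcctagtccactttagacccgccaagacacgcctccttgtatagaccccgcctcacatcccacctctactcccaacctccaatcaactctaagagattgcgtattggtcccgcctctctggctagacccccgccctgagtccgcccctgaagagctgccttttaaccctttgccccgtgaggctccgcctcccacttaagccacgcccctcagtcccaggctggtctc

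Csf3r, the G-CSF receptor (ENSMUSG00000028859, chr4:126024550-126044440, plus strand, mm10), had the largest excess in neutrophils of the 10 receptors. Its level was 2379 CPM in WT neutrophils and 2383 CPM in APP/PS1 neutrophils, from 51847 and 70249 UMIs. The next highest level in the WT library was that of classical monocytes at 157.2 CPM, 15.1-fold lower, followed by nonclassical monocytes at 137.2 CPM. In the APP/PS1 library classical monocytes were at 160.9 CPM and nonclassical monocytes at 139.8 CPM, and γδ T cells were above both at 266.2 CPM. NK, T, B and dendritic cells lay between 33.32 and 76.14 CPM, with neighbouring intervals overlapping. After each cell had been thinned to 1000 UMIs, 89.1% (exact binomial interval 88.4 to 89.8) of WT neutrophils and 88.9% (88.2 to 89.5) of APP/PS1 neutrophils had a Csf3r UMI, against 4.96% and 6.28% of T cells, and without thinning the share in WT neutrophils was 99.1%. Neutrophil RNA was also found in cells of other types: the 8 neutrophil markers had a median of 1.26% (range 0.538 to 2.54) of their neutrophil level in WT NK cells, where Csf3r was at 2.17% of its own. In WT classical monocytes the markers lay between 0.573% and 9.01% of their neutrophil level with a median of 1.11%, and Csf3r at 6.61% was exceeded by Slpi alone. Csf3r lay above all 8 markers in nonclassical monocytes, at 5.77% and 5.87% against at most 3.83% and 3.73%, and in APP/PS1 NK cells, at 2.63% against at most 1.98%. The part of such RNA in the low Csf3r levels was not tested.

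**Figure D1:**
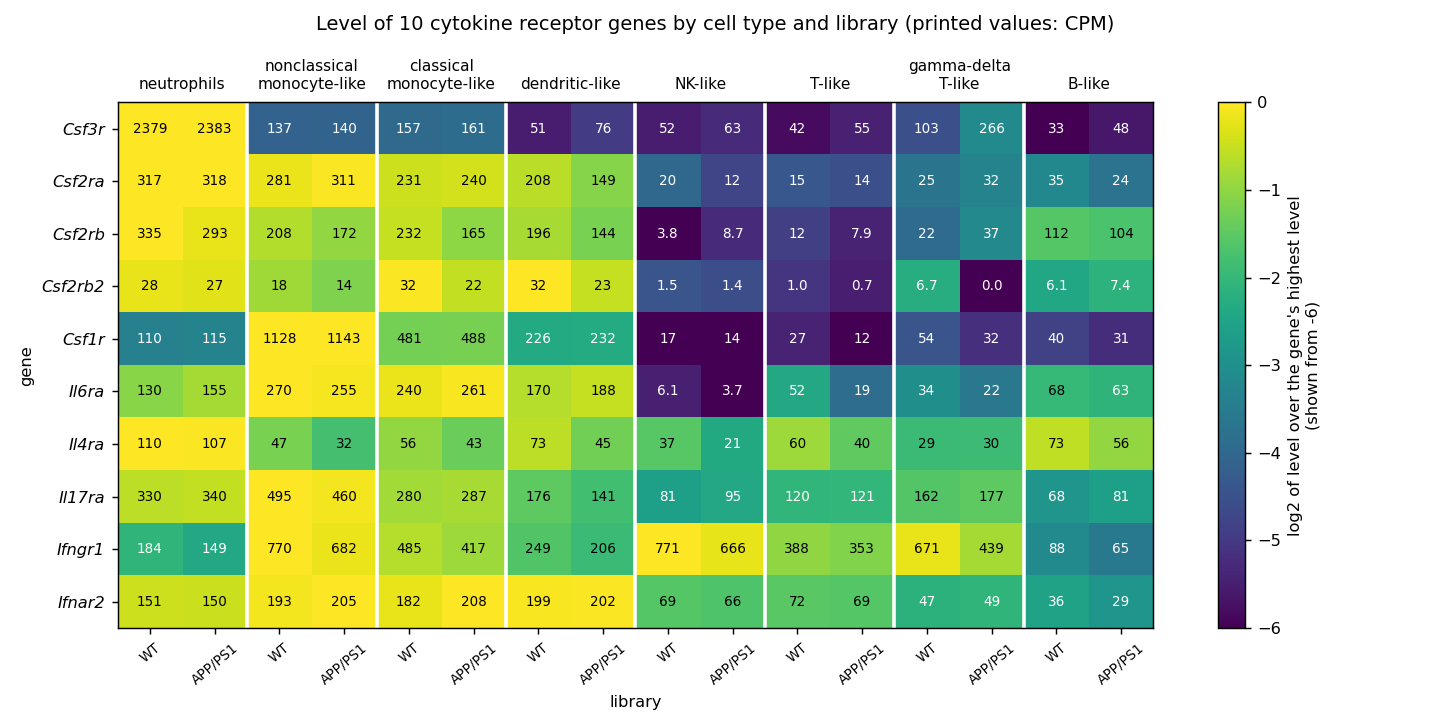
Level of the 10 receptor genes (rows) in neutrophils and 7 other cell types, with a column for the WT and a column for the APP/PS1 library of each. The printed value is CPM and the colour is the log2 of the level over that gene's highest level, shown from -6 to 0, and a row is to be read along itself. Csf3r is brightest in neutrophils (2379 and 2383 CPM), Csf1r in nonclassical monocytes (1128 and 1143 CPM), and Ifngr1 in NK cells and nonclassical monocytes.

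The chains of the GM-CSF receptor were shared by neutrophils, monocytes and dendritic cells and were low in lymphocytes. Csf2ra, the ligand-binding alpha chain (ENSMUSG00000059326, chr19:61223957-61228429, minus strand), was at 316.8 and 317.6 CPM in neutrophils. Nonclassical monocytes followed at 281 and 311.4 CPM, an interval that overlapped that of neutrophils in the APP/PS1 library but not in the WT library. Classical monocytes had 231.1 and 240.1 CPM and dendritic cells 208.1 and 149 CPM, whereas the lymphocyte clusters lay between 11.9 and 34.84 CPM. Csf2rb, the common beta chain that also serves the receptors of IL-3 and IL-5 (ENSMUSG00000071713, chr15:78325752-78353847, plus strand), was highest on the CPM scale in neutrophils among the 8 types compared, at 335.3 and 293.3 CPM. That order did not hold per cell. Csf2rb had 7307 UMIs in 7589 WT and 8646 in 9590 APP/PS1 neutrophils, but 2523 in 1343 and 1200 in 952 classical monocytes. Per cell Csf2rb was also above neutrophils in dendritic cells and below them in nonclassical monocytes. It stood at 231.7 and 164.9 CPM in classical monocytes, 208.2 and 172 CPM in nonclassical monocytes and 195.8 and 144.2 CPM in dendritic cells. B cells also carried it at 112.1 and 103.6 CPM, well above the 3.80 to 36.98 CPM of NK, T and γδ T cells. Csf2rb2, the IL-3-specific beta chain (ENSMUSG00000071714, chr15:78282507-78305721, minus strand), was at 28.13 and 26.7 CPM in neutrophils. Its intervals in neutrophils, classical monocytes (31.86 and 22.26 CPM) and dendritic cells (32.44 and 22.68 CPM) overlapped along the order in each library.

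Csf2rb and Csf2rb2 are neighbours, 20031 bases apart on opposite strands, and are near-identical in part. Of the 50-base windows along the longest Csf2rb transcript, 18.4% occurred unchanged in Csf2rb2, and the share was 0 of 951 windows in the last 1000 bases, the stretch from which a 3′ assay reads most. Reads from the shared stretches could be split or dropped by the counting, and the effect on the level of each gene was not estimated.

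Across 15 groups of cells (7 neutrophil clusters and 8 clusters or types of other cells, T cells counted as 2), the log2 CPM of Csf2ra and Csf2rb had a Pearson r of 0.947, and that of Csf2rb and Csf2rb2 of 0.961. These groups share 2 libraries, and the values describe them only. Ifngr1 was the receptor least like the others, with r between -0.55 (with Csf2rb) and 0.11 (with Csf1r). Among 10526 genes, the pattern most like that of Csf3r was that of Il1rap (r = 0.995), a shared chain of the IL-1 receptor family, and the pattern most like that of Csf2ra was that of Spi1 (r = 0.991), which encodes PU.1. The closest to Csf2rb was Pstpip2 (r = 0.98) and the closest to Csf2rb2 was Fuca1 (r = 0.98), and Spi1 ranked 3 for both (r = 0.974 and 0.963). The genes closest to Csf1r, Il6ra and Il17ra were Krt80 (r = 0.981), Ifngr2 (r = 0.943) and Cyb5r1 (r = 0.975), and those closest to Il4ra, Ifngr1 and Ifnar2 were Tspan13 (r = 0.935), Ppp1r9b (r = 0.912) and St3gal4 (r = 0.963).

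Csf1r, the M-CSF receptor, followed the monocyte lineage. Nonclassical monocytes had 1128 CPM in the WT and 1143 CPM in the APP/PS1 library, classical monocytes 481.2 and 488.2 CPM, dendritic cells 226 and 231.7 CPM and neutrophils 110 and 115.4 CPM, and no neighbouring intervals in this order overlapped in either library. Thinned to 1000 UMIs, 10.5% of WT and 10.7% of APP/PS1 neutrophils had a Csf1r UMI, against 66.8% and 65.6% of nonclassical monocytes and 1.15% and 0.503% of T cells. The neutrophil level was 9.75% and 10.1% of that of nonclassical monocytes, whereas the 8 nonclassical monocyte markers lay between 1% and 4.73% of their monocyte level in WT neutrophils and between 0.675% and 3.7% in APP/PS1 neutrophils. Against classical monocytes it was 22.9% and 23.6%, and the 8 classical monocyte markers had medians of 1.45% and 1.20% and reached 15.8% and 12.4% with Lyz2 alone. The part of monocyte RNA in the Csf1r level of neutrophils was not tested. Il6ra, the IL-6 binding chain (ENSMUSG00000027947, chr3:89864059-89913196, minus strand), was highest in monocytes among the types compared, at 270.2 and 254.8 CPM in nonclassical and 240 and 261.5 CPM in classical cells. Their order changed between the libraries, and the intervals overlapped in the APP/PS1 library. Neutrophils had 129.6 and 155.3 CPM of Il6ra, and NK cells had 6.08 and 3.65 CPM from 8 UMIs in each library. T cells showed 51.87 and 18.71 CPM, and the cluster led by Lef1, a factor of naive T cells, gave 52 of the 54 UMIs in the WT and 17 of the 26 UMIs in the APP/PS1 library (96.1 and 35.75 CPM). The cluster led by Cd8b1 was at 4.0 and 9.85 CPM.

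Il4ra, the IL-4 and IL-13 receptor chain (ENSMUSG00000030748, chr7:125552120-125579474, plus strand), was higher on the CPM scale in neutrophils, at 109.9 and 107 CPM, than in any other cell type compared, and the intervals did not overlap. B cells came next at 73.47 and 55.81 CPM, and from there down every pair of neighbours overlapped. Neutrophils had 2872 and 3073 UMIs of all genes per cell, classical monocytes 8109 and 7644 and dendritic cells 8514 and 8456. That order did not hold as UMIs per cell. Il4ra had 2396 UMIs in 7589 WT and 3154 in 9590 APP/PS1 neutrophils. Dendritic cells, with 65 in 105 and 28 in 73 cells, and classical monocytes, with 610 in 1343 and 315 in 952, had more per cell. The lead of classical monocytes was slight in the APP/PS1 library. B cells had more in the WT library only, and the remaining types had fewer in both. Intervals were not computed on that scale. Il17ra, the IL-17 receptor chain (ENSMUSG00000002897, chr6:120463247-120487559, plus strand), was, among the types compared, highest in nonclassical monocytes at 495.3 and 460 CPM, ahead of neutrophils at 329.6 and 340 CPM and of classical monocytes at 279.5 and 286.6 CPM, with no overlap among these 3. B cells were lowest at 68.16 and 81.23 CPM.

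The interferon receptor chains differed in pattern. Ifngr1, the chain that binds interferon γ (ENSMUSG00000020009, chr10:19591949-19610229, plus strand), was highest among the 8 types compared in NK cells at 771.2 and 665.6 CPM and nonclassical monocytes at 770.4 and 682.5 CPM, whose intervals overlapped. Lower levels followed in γδ T cells (671 and 438.8 CPM), classical monocytes (484.7 and 417 CPM), T cells (388.1 and 353.3 CPM) and dendritic cells (249.5 and 205.7 CPM), with γδ T cells and classical monocytes overlapping in the APP/PS1 library. Neutrophils had 184.3 and 149.1 CPM, and of the types compared B cells alone were lower, at 87.86 and 65.11 CPM. Ifnar2, a chain of the type I interferon receptor (ENSMUSG00000022971, chr16:91372783-91405589, plus strand), lay between 182 and 208.3 CPM in dendritic cells and both monocyte types, with overlapping neighbours. Neutrophils had 150.6 and 150.2 CPM of Ifnar2, below the monocytes without overlap, and the lymphocyte clusters had 28.52 to 72.04 CPM.

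Neutrophils were set against all other kept cells within each library, and a gene was called when its log2 ratio of CPM passed 0.5 in the same direction in both libraries. Of the 10 receptors, 5 were called, 3 higher and 2 lower, beside 75% of 11607 genes called in either direction (15.5% higher and 59.5% lower). Csf3r was higher by a log2 ratio of 2.85 in the WT and 2.79 in the APP/PS1 library, Il4ra by 0.87 and 1.31, and Csf2rb by 0.66 and 0.91. Csf1r was lower at -2.43 and -2.21 and Ifngr1 at -1.57 and -1.66. The median log2 ratio of the 10 receptors was 0.25, and that of all genes was -1.01. The other cells carried more RNA, with 6130 and 5533 UMIs per cell against 2872 and 3073 in neutrophils. They included the mixed clusters, with 69.4% and 58.6% of cells called doublets, some led by the neutrophil markers Cxcr2 and S100a9. Named other cells alone had 5475 and 5073 UMIs per cell. On the scale of UMIs per cell Csf3r was the only receptor called higher in neutrophils, and 5 were called lower (Csf1r, Il6ra, Il17ra, Ifngr1 and Ifnar2). The median log2 ratio of all genes was -1.98 on that scale, and the share of all genes called on it was not counted. The counts of receptors on it are thus no result about the receptors. The mean log2 ratio of Csf2rb over both libraries was -0.19 there. Csf2rb had 0.963 and 0.902 UMIs per cell in neutrophils against 1.30 and 0.865 in the other cells, so that its sign turned in the WT library only.

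Of 8 partner chains of these receptors 7 had enough UMIs to be compared (100 over the groups), 1 was higher in neutrophils and 4 were lower, beside the 15.5% of all genes higher and 59.5% lower. Il13ra1, which forms the type II IL-4 receptor with Il4ra, was at 158.5 and 151.7 CPM in neutrophils and 89.81 and 77.43 CPM in the other cells. Il6st, the signalling chain for IL-6, was at 1.10 and 1.02 CPM in neutrophils, from 24 and 30 UMIs, against 33 and 32.46 CPM in the other cells. Il2rg, the common gamma chain, was at 12.9 and 12.6 CPM against 85.88 and 101.9 CPM. Il3ra was also lower, at 3.76 and 3.43 CPM against 23.34 and 19.27 CPM, and Il5ra had 0 UMIs in neutrophils of either library, which allows up to 0.169 and 0.125 CPM (exact Poisson bound). Among 11 other haematopoietic cytokine receptors compared (of 12), 4 were higher (among them Il18rap, Tnfrsf1a and Il10rb) and 6 lower (Il7r, Il2rb, Il10ra, Il21r, Flt3 and Tnfrsf1b). Of 11 JAK and STAT genes 2 were lower, Tyk2 (log2 ratio -2.38 and -2.40) and Stat5a (-1.10 and -1.35). Of 6 feedback inhibitors 2 were higher, Socs3 (1.42 and 1.67), which restrains G-CSF and IL-6 receptor signalling, and Socs1, and 2 were lower, Socs2 and Cish. Of 12 ligands 5 could be compared, 4 were lower in neutrophils (Il4, Il6, Il17a and Ifng) and Csf1, the ligand of Csf1r, was higher, at 257.1 and 339.2 CPM against 48.3 and 51.89 CPM.

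Within neutrophils, receptor levels were compared across 5 clusters named by markers. They were an immature-like cluster with secondary granule genes such as Camp, Ngp and Ltf (175 WT and 224 APP/PS1 cells), an interferon-signature cluster (585 and 826), a cluster with platelet transcripts (1439 and 2050), a Retnlg-high cluster (3029 and 3034) and a Retnlg-low cluster led by Clec4n, Dusp2 and Csf1 (1334 and 2712). Clusters led by Ccl2 (946 and 666 cells) and by mt-Nd2 (81 and 78 cells) had no name.

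The secondary granule cluster had the lowest level of all 10 receptors among the 5 named clusters, in both libraries. Csf3r was at 747.8 CPM in the WT and 575 CPM in the APP/PS1 cluster, whereas the other neutrophils had 2449 and 2474 CPM, giving log2 ratios of -1.71 (-1.82 to -1.60) and -2.11 (-2.21 to -2.0). Thinned to 1000 UMIs, 54.3% (46.6 to 61.8) and 37.1% (30.7 to 43.7) of its cells had a Csf3r UMI. In all, 7 of 10 receptors passed the limit downwards in both libraries, beside 39.2% of 8309 genes in either direction and 28.7% downwards, and the median log2 ratio of the receptors was -1.17 against -0.33 for all genes. The others called were Csf1r at -1.34 and -1.41, Il6ra at -1.01 and -1.36, Ifngr1 at -0.99 and -1.33, Il4ra at -0.95 and -1.73, Ifnar2 at -0.72 and -0.65, and Csf2rb at -0.61 and -1.10. Csf2ra (-0.35 and -0.55) and Il17ra (-0.43 and -0.72) passed the limit in 1 library only, as did Csf2rb2, which rested on 19 and 10 UMIs in the cluster.

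These cells had the most RNA of the neutrophil clusters, with 5120 and 6289 UMIs per cell against 2819 and 2997 in the other neutrophils, and the ratio depended on that scale. As UMIs per cell, Csf3r was at 3.83 in the WT and 3.62 in the APP/PS1 cluster, against 6.90 and 7.41 in the other neutrophils, and was the only receptor still called lower, with log2 ratios of -0.85 and -1.04. Csf2ra turned to 0.51 and 0.52 on that scale and was called higher, with 1.28 and 1.38 UMIs per cell against 0.901 and 0.966. The median over all genes there was 0.64 on that scale, above the values of Csf2ra. The share of all genes called on that scale was not counted, so these calls are no result about the receptors. Ifnar2 turned to 0.14 and 0.42. Other genes of the pathway also had low CPM there: 7 of 11 JAK and STAT genes (among them Jak1, Jak2, Stat3 and Stat6), 2 of 4 feedback inhibitors (Socs3 at -2.14 and -2.92, and Socs1) and 5 of 6 other cytokine receptors. Of 5 partner chains 2 were lower, Il13ra1 (-1.55 and -2.71) and Ifnar1 (-0.68 and -0.80), and Il3ra was higher (1.12 and 1.28, from 7 and 11 UMIs).

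**Figure D2:**
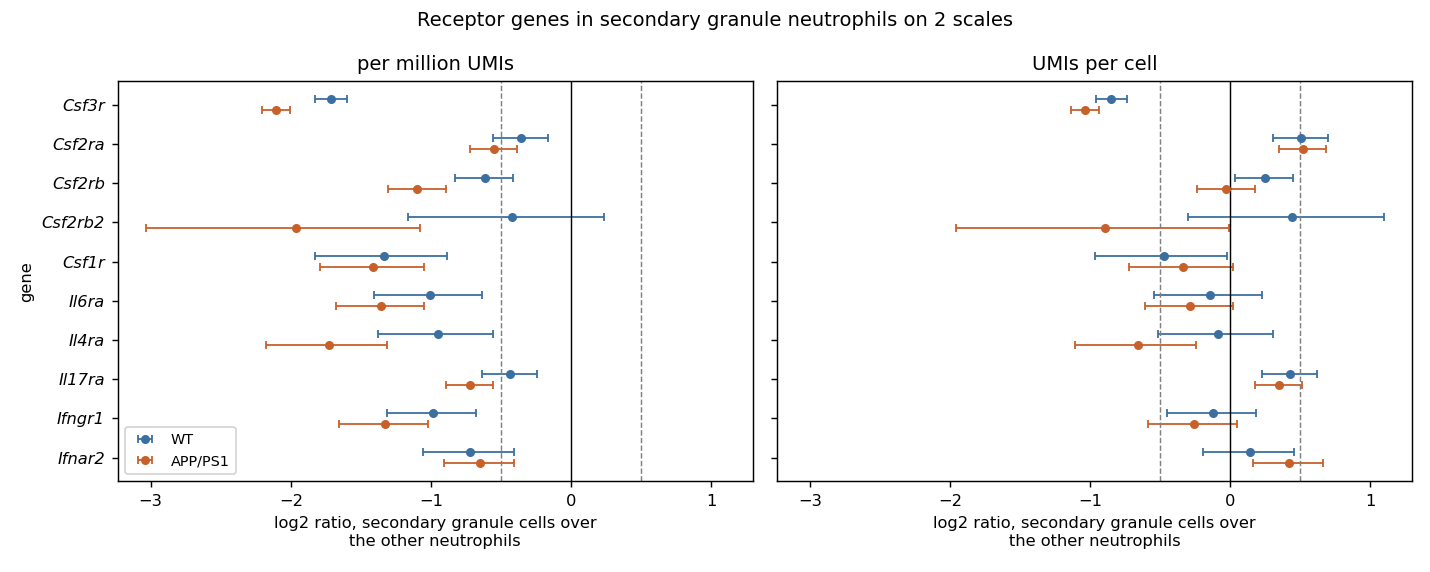
Log2 ratio of each receptor gene in the secondary granule cluster over the other neutrophils, in CPM (left panel) and as UMIs per cell (right panel), for WT (blue) and APP/PS1 (orange), with exact 95% intervals as bars and dashed lines at the limit of 0.5. In CPM all 10 genes lie below 0 in both libraries, whereas per cell Csf3r stays below -0.5 and Csf2ra, Il17ra and Ifnar2 lie above 0.

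In the other 4 clusters no receptor passed the limit against the remaining neutrophils, beside 8.79% of genes called in the interferon-signature cluster, 5.76% in the platelet-transcript cluster, 9.48% in the Retnlg-high cluster and 13.3% in the Retnlg-low cluster. The Retnlg-low cluster had the highest Csf3r, at 2939 CPM in the WT and 2850 CPM in the APP/PS1 library, above the interferon-signature cluster at 2502 and 2402 CPM without overlap. Its log2 ratios against the remaining neutrophils were 0.36 and 0.34 for Csf3r, 0.45 and 0.34 for Csf1r, 0.38 and 0.39 for Ifngr1, 0.35 and 0.31 for Il6ra and 0.31 and 0.26 for Il4ra, all with intervals above 0. The median over the 10 receptors was 0.25, close to the 0.21 of all genes in that cluster, and on the scale of UMIs per cell all 10 receptors were below 0 there, Csf3r at -0.20 and -0.19. The ligand Csf1 was called higher there, at 560.7 and 583.8 CPM. In the Retnlg-high cluster Csf3r was at 2209 and 2193 CPM, a log2 ratio of -0.17 in each library. Csf2ra varied little over these 4 clusters, with ranges of 304.1 to 319.6 CPM in the WT library and 298.6 to 324.3 CPM in the APP/PS1 library and overlapping neighbours throughout.

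**Figure D3:**
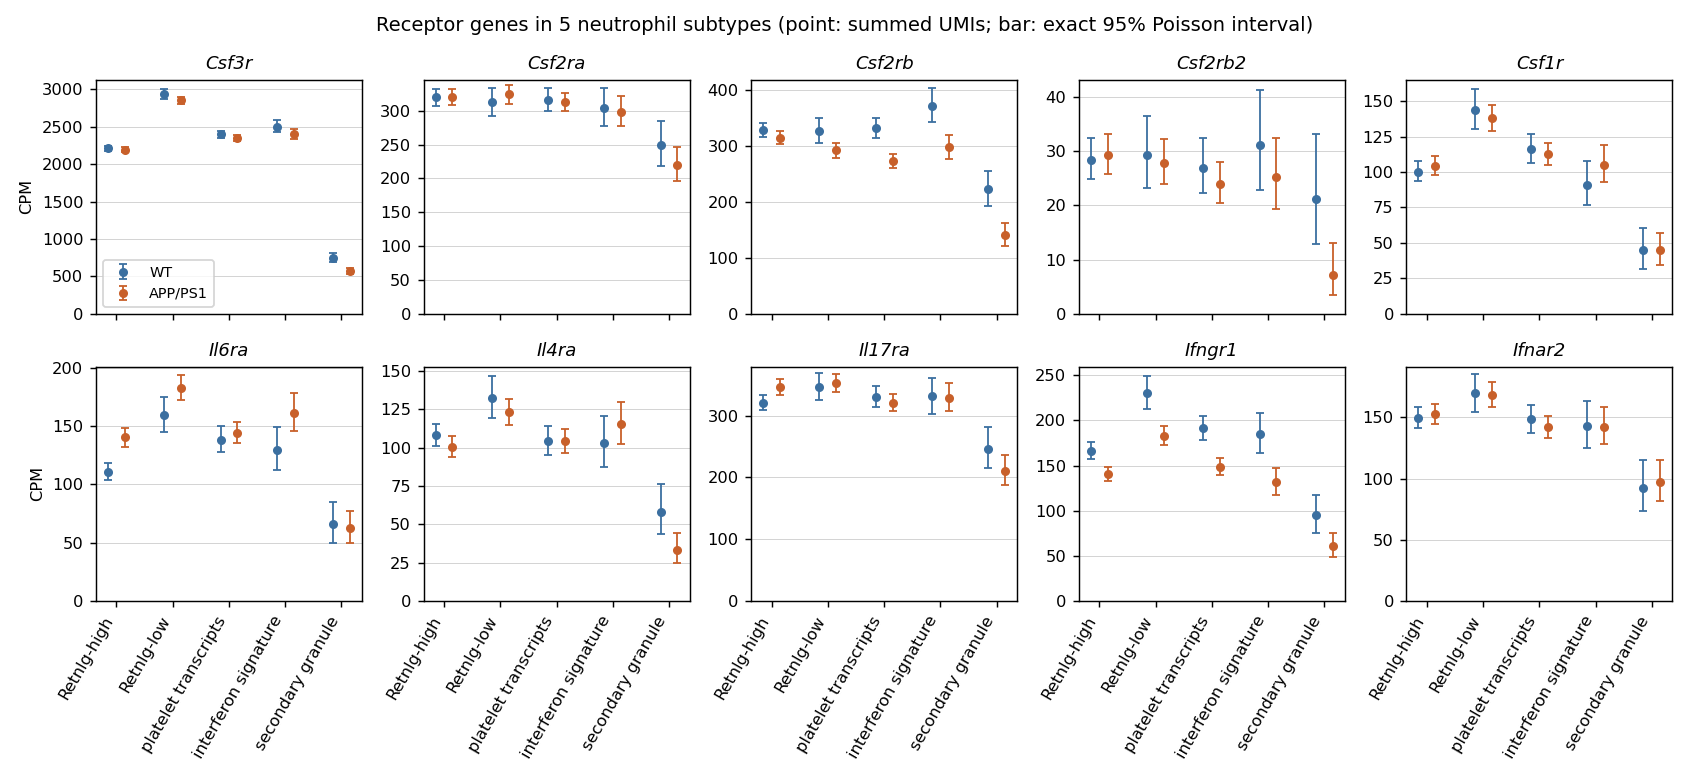
Level of each receptor gene (CPM, 1 panel per gene, axes from 0) in 5 named neutrophil clusters, with 1 point per library (WT blue, APP/PS1 orange) and bars for the exact 95% Poisson interval. The secondary granule cluster is lowest for all 10 genes, and the Retnlg-low cluster is highest for Csf3r, Csf1r, Il6ra, Il4ra, Ifngr1 and Ifnar2.

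The central comparison of the study, APP/PS1 against WT, showed no receptor past the limit in neutrophils as a whole: 0 of 10, beside 8.53% of 8309 genes (4.95% higher and 3.59% lower). The median log2 ratio of the receptors was -0.00 and that of all genes 0.05. Csf3r differed by 0.00 (-0.01 to 0.02), and Csf2ra, at 316.8 and 317.6 CPM, by 0.00 (-0.04 to 0.05). Both intervals are narrow because of the number of UMIs, and they do not contain the variation between mice. Csf3r was lower in APP/PS1 in 5 of 5 named clusters (-0.01 to -0.38, with 2 intervals below 0). It was higher in the unnamed cluster led by Ccl2. As a share of all neutrophil cells, the Retnlg-low cluster, highest in Csf3r, stood at 17.6% in WT and 28.3% in APP/PS1. The Retnlg-high cluster stood at 39.9% and 31.6%. The effect of these shares on the ratios over all neutrophils was not tested.

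The intervals of 3 receptors lay apart from 0 by more than 0.1. Ifngr1 was lower in APP/PS1 neutrophils, where it had 149.1 CPM and WT neutrophils 184.3 CPM, and its log2 ratio of -0.31 (-0.37 to -0.24) was lower than all but 7.8% of the genes compared. Thinned to 1000 UMIs, 16.8% (16.0 to 17.6) of WT and 13.7% (13 to 14.4) of APP/PS1 neutrophils had an Ifngr1 UMI, against 5.68% of WT and 4.27% of APP/PS1 B cells, the type with the lowest level. Csf2rb was also lower (335.3 and 293.3 CPM), with a log2 ratio of -0.19 (-0.24 to -0.15). Il6ra was higher (129.6 and 155.3 CPM), with a log2 ratio of 0.26 (0.19 to 0.33), and 14.1% of APP/PS1 against 12.4% of WT neutrophils had an Il6ra UMI after thinning. Of the rest, Csf1r was at 110 and 115.4 CPM, Il4ra at 109.9 and 107 CPM, Il17ra at 329.6 and 340 CPM, Ifnar2 at 150.6 and 150.2 CPM and Csf2rb2 at 28.13 and 26.7 CPM. The share of UMIs taken by the 8 neutrophil markers also differed, at 183000 and 154400 CPM, and with TMM library sizes the median over all genes moved from 0.05 to 0.01.

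**Figure D4:**
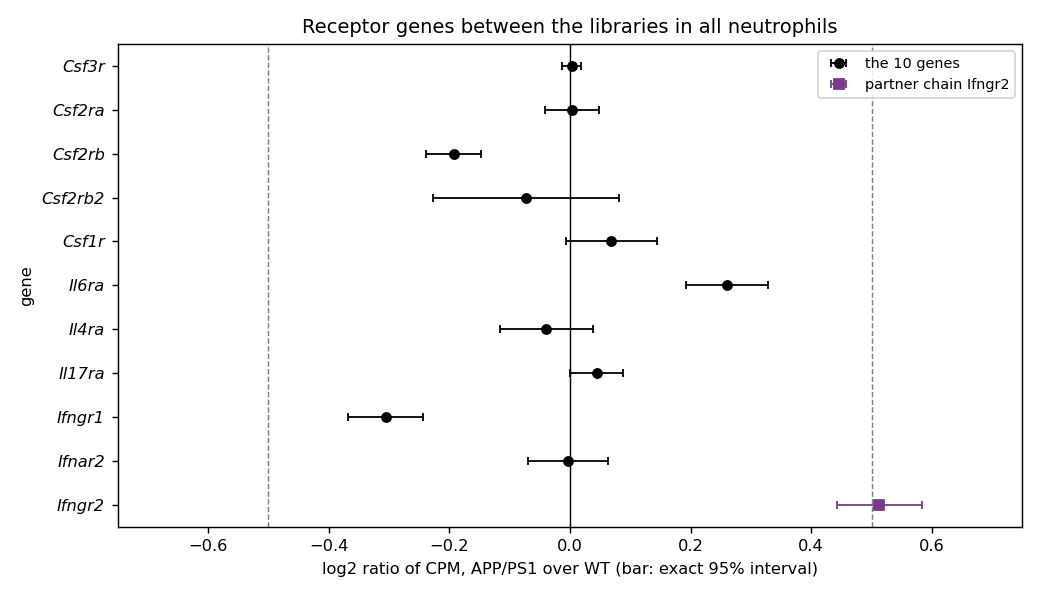
Log2 ratio of CPM, APP/PS1 over WT, in all neutrophils for the 10 receptor genes (black points) and the partner chain Ifngr2 (purple square), with exact 95% intervals as bars and dashed lines at the limit of 0.5. All 10 receptors lie inside the limit, from -0.31 for Ifngr1 to 0.26 for Il6ra, and Ifngr2 lies just above it at 0.51 (0.47 with TMM library sizes, not drawn).

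The 2 chains of the interferon γ receptor differed in opposite directions. Ifngr2, the signalling chain, was at 115.1 and 164.2 CPM in neutrophils, a log2 ratio of 0.51 (0.44 to 0.58), and was the 1 called of 5 partner chains. It passed the limit narrowly, and with TMM library sizes its log2 ratio was 0.47, inside it. Ifngr2 was higher in APP/PS1 in 5 of 5 neutrophil clusters (log2 ratio 0.07 to 0.65, with 4 intervals above 0), whereas Ifngr1 was lower in 5 of 5 (-0.24 to -0.64, with all 5 intervals below 0). Of 11 JAK and STAT genes 0 passed the limit, with Jak1 at 368 and 367.4 CPM and Stat3 at 247.3 and 226.7 CPM. Of 6 other cytokine receptors only Il10ra, the IL-10 binding chain, was called, at 88.61 and 57.51 CPM (-0.62), while its partner Il10rb was at 93.42 and 92.96 CPM. No feedback inhibitor of 4 passed, with Socs3 at 261.5 and 292.9 CPM. Of 12 ligands only Csf1 had enough UMIs, at 257.1 and 339.2 CPM (0.40).

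Ifngr2 lies in a cluster of receptor genes on chromosome 16, in the order Ifnar2, Il10rb, Ifnar1 and Ifngr2, with Il10rb 575 bases, Ifnar1 79649 bases and Ifngr2 141483 bases from Ifnar2. In neutrophils the log2 ratios were -0.01 for Il10rb and 0.03 for Ifnar1, and Ifnar2 was at 150.6 and 150.2 CPM, and Ifngr2 was the only 1 of the 12 compared genes within 500 kb of Ifnar2 past the limit in CPM. Near Ifngr1 only 2 genes could be compared, Pex7 (-0.25) and Map3k5 (-0.15). Near Csf2rb, 1 of 11 passed, Ncf4, a subunit of the phagocyte oxidase, at 244.4 and 348.5 CPM (0.51, and 0.47 with TMM library sizes, inside the limit), in the direction opposite to that of Csf2rb.

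Within neutrophil clusters, the secondary granule cluster held the receptors called between the libraries, 2 of 8 compared, both lower, beside 9.96% of 2278 genes (6.45% lower). Csf2rb was at 222.1 and 140.6 CPM, a log2 ratio of -0.66 (-0.95 to -0.37) from 199 and 198 UMIs. Ifngr1 was at 94.87 and 61.05 CPM, a log2 ratio of -0.64 (-1.08 to -0.19). Csf3r was at 747.8 and 575 CPM there, -0.38 (-0.53 to -0.23), and within the limit. The median UMIs per cell of this cluster were 4603 in WT and 6190 in APP/PS1. As UMIs per cell Csf2rb was at 1.14 and 0.884 there, Ifngr1 at 0.486 and 0.384 and Csf3r at 3.83 and 3.62. Each pair lay closer together than in CPM, and no call between the libraries was made on that scale. The part of the difference in UMIs per cell in the CPM ratios was not tested. No receptor was called in the interferon-signature (8.62% of genes called), platelet-transcript (7.29%), Retnlg-high (6.71%) or Retnlg-low cluster (7.34%). Csf2rb was lower in APP/PS1 in all 5 clusters, with 4 intervals below 0, from -0.66 to -0.06 in the Retnlg-high cluster. Il6ra was higher in 4 of 5, with 3 intervals above 0 and its highest ratio of 0.34 in the Retnlg-high cluster (110.6 and 140.3 CPM).

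**Figure D5:**
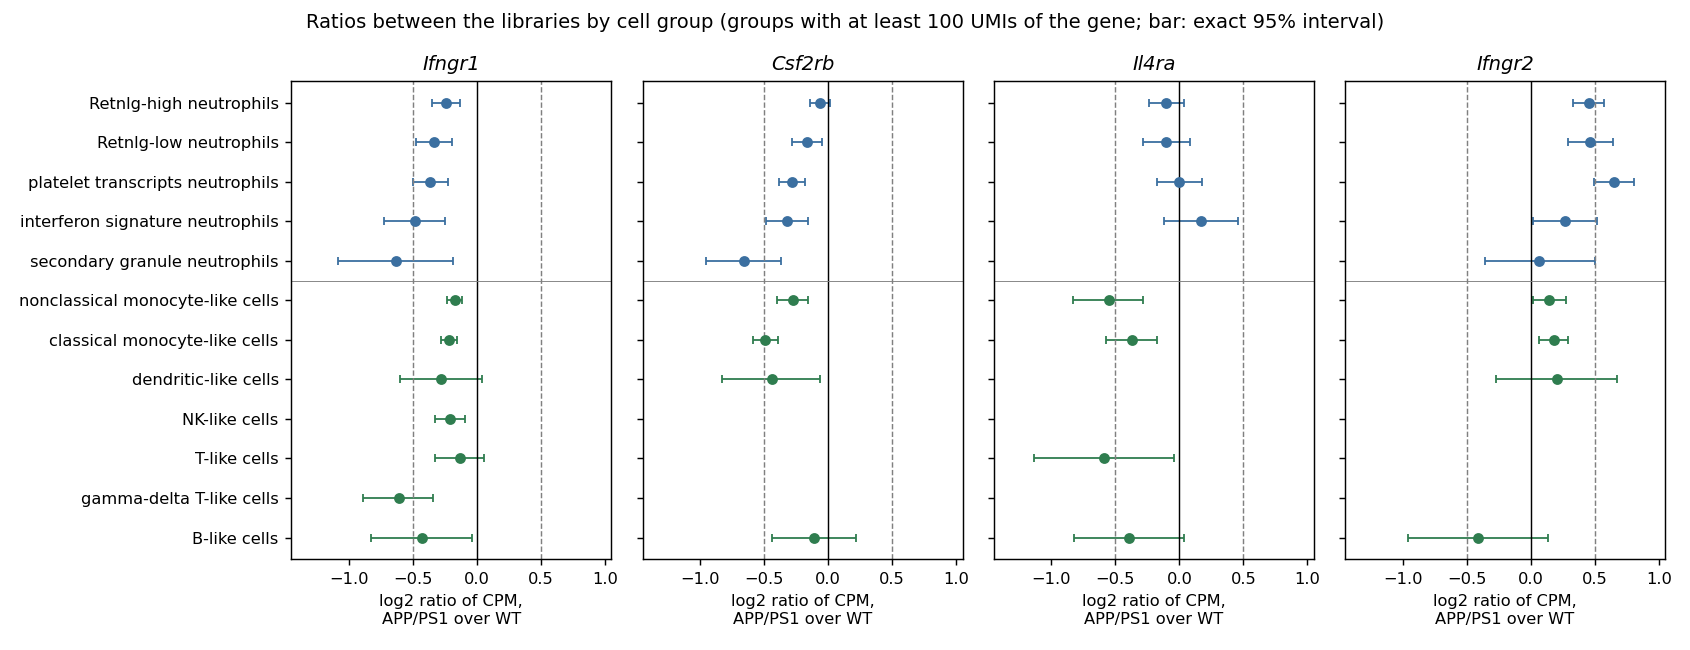
Log2 ratio of CPM, APP/PS1 over WT, of Ifngr1, Csf2rb, Il4ra and the partner chain Ifngr2 in 5 neutrophil clusters (blue) and 7 other cell types (green), for groups with at least 100 UMIs of the gene. Bars are exact 95% intervals and dashed lines mark the limit of 0.5. Ifngr1 and Csf2rb are below 0 in every group drawn, Il4ra is below 0 in the 4 other cell types drawn, and Ifngr2 is above 0 in the 5 neutrophil clusters.

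In the other cell types few receptors passed the limit, and the calls went in both directions. Il4ra was called in nonclassical monocytes, at 47.49 and 32.35 CPM (-0.55, -0.83 to -0.28), beside 5.59% of genes there, and in T cells at 59.56 and 39.58 CPM (-0.59, -1.14 to -0.04), beside 11.8% of genes. It was lower in all 4 cell types where it could be compared, from -0.37 to -0.59, whereas its neutrophil levels were 109.9 and 107 CPM. The difference between types was not tested, and the T cell value rested on 62 and 55 UMIs and no receptor was called in T cells once called doublets were removed. Csf2rb2 was called in classical monocytes at 31.86 and 22.26 CPM (-0.52, -0.80 to -0.24), beside 5.1% of genes, and was within the limit with TMM library sizes. Csf2rb was at 231.7 and 164.9 CPM in the same cells (-0.49, -0.59 to -0.39), just inside the limit, and Csf2ra at 231.1 and 240.1 CPM. Csf2rb was lower in all 4 cell types where it could be compared, with 3 intervals below 0.

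Ifngr1 was lower in APP/PS1 in 7 of 7 other cell types, from -0.14 in T cells to -0.61 in γδ T cells, with 5 intervals below 0. NK cells had 771.2 and 665.6 CPM (-0.21, -0.33 to -0.10), and nonclassical monocytes 770.4 and 682.5 CPM (-0.17, -0.24 to -0.11). In γδ T cells it was called, at 671 and 438.8 CPM (-0.61, -0.89 to -0.34), beside 8.88% of genes. Every one of these ratios compares the same 2 pools of mice, so they are not independent of each other.

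Csf3r was higher in APP/PS1 in the 6 other cell types where it could be compared, with 1 interval above 0, and was called in γδ T cells (103.2 and 266.2 CPM, 1.37, 0.86 to 1.90) and B cells (33.32 and 48.37 CPM, 0.54, -0.01 to 1.10), beside 7.78% of genes in B cells. In γδ T cells all 8 neutrophil markers were detected. Their median was 3.77% (3.12 to 4.20) of their neutrophil level in WT and 7.6% (6.32 to 9.96) in APP/PS1, where Csf3r was at 4.34% and 11.2% of its own. In B cells the markers had medians of 1.11% and 1.16% and reached 2.22% and 1.85% at most. Csf3r was at 1.4% and 2.03% there, above all 8 markers in the APP/PS1 library only. Called doublets were 11.6% and 4.29% of γδ T cells. The part of neutrophil RNA in these 2 values was not tested. No receptor was called in dendritic cells (9.41% of genes called) or NK cells (4.45%).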

How the data were processed

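The members and the gene lists were chosen with earlier results of these data known. The files deposited by the authors hold UMI counts per gene and cell as called by Cell Ranger 5.0.0 against mm10, 1 matrix per library, and no cell annotation. Cells between the 5th and 95th percentile of UMIs and of genes in their library, with at most 10% mitochondrial UMIs, were kept. They were clustered with Seurat 5.3.0 (R 4.3.3; 2000 variable features, 15 principal components, resolution 0.2), and neutrophils were clustered again after anchoring the libraries (resolution 0.3, 7 clusters), the other cells at 0.5 (22 clusters). Receptors, pathway genes and, in neutrophils, genes past the limit between the libraries were not used as features. Clusters were named from fixed markers, by scoring rules that were set with a trial clustering in view. Scrublet (scanpy 1.11.5) set its own threshold in the WT library and called no cell in APP/PS1, so the WT threshold was used for both; clusters with 30% or more called doublets were kept apart as mixed.

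UMIs were summed per library and cluster and divided by all UMIs there (CPM). Ratios are of CPM, for genes with at least 100 UMIs over the groups, and a gene was called past a log2 ratio of 0.5 (in both libraries, for comparisons within a library). Intervals are exact Poisson (levels), Clopper-Pearson (shares) or conditional binomial (ratios) at 95%, computed with scipy 1.17.1. UMIs remove duplicate reads, and the intervals cover counting error only. No p-value was computed, with 1 library per genotype. For likeness, r is Pearson's over log2(CPM + 1), and the 3 closest genes were looked up. On simulated counts for the all-neutrophil comparison, intervals held the true ratio of 95% of 8127 unchanged genes. Those counts were drawn from the Poisson model that the intervals assume, so this checks the computation only. They held no spread between cells or mice. Named genes were the 10 receptors, the members of the fixed lists and, for likeness, the closest genes. Gene positions are from GENCODE for mm10, the build of the counts, and promoters from RefSeq. The values of 2 listed genes are not reported here.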

Additional observations from a re-analysis of the deposited data

How the results depend on the processing

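No receptor was past the limit between the libraries in all neutrophils under any of the 9 alternatives run. Of the count of all genes past it there (709, 58% higher), 3759 were past with no minimum of UMIs and 71 at a log2 limit of 1, and the split was 303 higher and 349 lower with TMM library sizes (edgeR 4.0.16) and 301 higher and 349 lower with library sizes that left out abundant genes. As UMIs per cell, a scale added for clusters after seeing the data, 2 receptors were past the limit in the secondary granule cluster (7 in CPM) and 1, Csf2rb, in the Retnlg-low cluster (0 in CPM). On that scale the mean over both libraries turned to -0.19 for Csf2rb in neutrophils against the other cells (below 0 in the WT library only), and in the secondary granule cluster to 0.11 for Csf2rb (0.25 in WT and -0.03 in APP/PS1) and 0.28 for Ifnar2 (0.14 and 0.42). The scale also moved the median over all genes in that cluster from -0.33 to 0.64, thinning moved it to -0.60 and leaving out abundant genes to -0.03. Neutrophils against the other cells gave 6 receptors, Csf2ra added, with called doublets removed, with means over cells, with thinned cells and against named other cells alone (added after seeing the data). Between the libraries, no minimum of UMIs gave 4 in the secondary granule cluster (2), 3 in dendritic cells (0), 4 in NK cells (0), 4 in T cells (1), 5 in γδ T cells (2) and 2 in B cells (1), with the count at the minimum in parentheses. The share of all genes past the limit without a minimum was not counted in these groups, so these counts are no result about the receptors. The receptors added had under 100 UMIs, such as Il6ra in NK cells with 8 UMIs in each library. Leaving out abundant genes gave 1 in the interferon-signature cluster (Ifngr1, 0 before), TMM gave 0 in classical monocytes (1 before), and removing called doublets gave 0 in T cells (1 before). The other 93 counts stayed within 1.5 times their value. Apart from all neutrophils between the libraries, the share of all genes past the limit was not counted under the alternatives. The changed counts of receptors are thus no result about them. Values could not be obtained for the Retnlg-high cluster with all variable features, or for the Retnlg-low cluster with all variable features or without anchors, since no cluster took those names. No paired analysis was possible because each genotype had 1 library, and for the same reason no library could be left out. The cause of these changes was not tested. Depth limited small clusters: a receptor with under 100 UMIs over both libraries was not compared there.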

Other observations

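Basophils were too few for a comparison (71 WT and 43 APP/PS1 cells), and their values are described after being seen. They carried the common beta chain Csf2rb at 1105 and 951.8 CPM and Csf2rb2 at 379.7 and 427.6 CPM, above the levels of both genes in neutrophils. Il6ra had 17 UMIs in the WT and 0 UMIs in the APP/PS1 basophils. Called doublets made up 11.3% and 2.33% of these cells.

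A neutrophil cluster without a name, led by Ccl2 (946 and 666 cells), had 2642 and 2788 CPM of Csf3r and the second largest amount of RNA among neutrophil clusters, with 4188 and 5324 UMIs per cell. A cluster of other cells without a name, led by Aif1 (840 and 712 cells), had 844.2 and 897.5 CPM of Csf1r, 778.5 and 694.9 CPM of Ifngr1 and 129.6 and 126.3 CPM of Csf3r.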
